A study of Mus musculus with 6 samples.

Results

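Prg2, Epx, Il5ra, Mcpt8, Prss34, Cpa3, Gata2, Ms4a2, Fcer1a and Cd200r3 are genes of the granulocyte lineages other than the neutrophil, namely eosinophils, basophils and their tissue relatives the mast cells. These 10 genes, of 38887 Ensembl gene identifiers with counts, were picked by name for what they are known to mark. They were followed in neutrophils selected by Ly6G from the bone marrow of naive mice, of mice 1 week after injection of LL2 tumor cells and of mice 3 weeks after it (here 1-week and 3-week LL2 mice), with 2 libraries in each group, to measure how much of the RNA of other granulocytes the selected cells carried. LL2 is a Lewis lung carcinoma line, and luciferase-bearing LL2 cells were injected into a vein of C57BL/6 mice so that tumors grew in the lung. Mice were young adults of either sex, with the sex of each library not given, and no engineered allele was stated for any group. Cells were taken from tibias and femurs after lysis of red cells and selected with antibody to Ly6G and magnetic beads, to a purity of over 95% as the labels state it, so cells without Ly6G could remain in the part that was not neutrophils. The labels title each library as a mouse of its group with a replicate number, but do not state that cells were processed separately. The p-values measure only the spread between these libraries.

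Eosinophils, basophils and mast cells arise in the bone marrow from progenitors that use GATA factors, while neutrophil progenitors lose them. The granule proteins of these lineages differ, although some are shared. Eosinophils store the major basic protein made from Prg2 and the peroxidase made from Epx, and they depend on interleukin 5, whose receptor chain is Il5ra. Basophils store the proteases Mcpt8 and Prss34, which in the mouse mark basophils rather than mast cells. Cpa3, carboxypeptidase A3, is shared by mast cells, basophils and their progenitors. Fcer1a and Ms4a2 encode the alpha and beta chains of the high-affinity IgE receptor, Cd200r3 encodes an activating surface receptor of basophils and mast cells, and Gata2 encodes a transcription factor of all these lineages and of early progenitors.

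The promoters of the 3 protease genes that moved together and of Il5ra, which was not called in any comparison, are shown because these genes carry the contrast described here. Promoter windows of 300 bases were taken from RefSeq on GRCm38.p6 for 9 of the 10 genes, all but Prg2, and were searched on both strands for the GATA motifs AGATAA and TGATAA and for the C/EBP motif TTGCNNAA. A GATA match lay in the window of 6 of the genes (Prss34, Cpa3, Cd200r3, Il5ra, Fcer1a and Ms4a2), where 18.6% of all 32851 promoter windows of that length held one. A C/EBP match lay in 2 of them (Fcer1a and Cd200r3), where 10.8% of all windows held one. No match was found in the windows of Mcpt8, Epx and Gata2. The lines that follow give the 100 bases before the outermost annotated start (for Mcpt8 the GENCODE start, 76 bases before that of RefSeq), 5′ to 3′ on the strand of the gene, with AGATAA in capitals. Prss34 lies on the plus strand (chr17:25298294-25298393), and Cpa3 (chr3:20242182-20242281), Mcpt8 (chr14:56085274-56085373) and Il5ra (chr6:106749038-106749137) lie on the minus strand.
Prss34: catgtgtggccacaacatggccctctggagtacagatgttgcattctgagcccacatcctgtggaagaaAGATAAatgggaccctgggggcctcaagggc
Cpa3: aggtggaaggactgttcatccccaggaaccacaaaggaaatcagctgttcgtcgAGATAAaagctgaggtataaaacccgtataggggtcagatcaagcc
Mcpt8: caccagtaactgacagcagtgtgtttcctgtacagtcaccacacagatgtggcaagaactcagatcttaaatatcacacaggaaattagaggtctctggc
Il5ra: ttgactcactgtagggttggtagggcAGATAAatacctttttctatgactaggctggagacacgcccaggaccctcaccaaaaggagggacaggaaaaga
The AGATAA of Prss34 began 31 bases before its start, that of Cpa3 46 bases and that of Il5ra 74 bases. The letters are a description and not a site of binding.

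Libraries held from 11994158 to 14127919 expected counts, and 3 counts were taken as the floor of detection. Levels are given in CPM, in which a library's total is first multiplied by a TMM factor that adjusts for its makeup, and the floor lay at 0.2003 to 0.2456 CPM. Floors and the intervals of pooled counts cover counting error only, since PCR copies of 1 molecule can be counted more than once, while intervals of log2 differences come from the edgeR fit and include the spread between libraries. The 11 genes that define neutrophils, among them S100a8, S100a9 and Ly6g, held between 29.53% and 31.6% of the counts of every library. S100a8 gave most of these, with 2104828 to 2948409 counts in a library. Ly6g, the gene of the selection marker, had only 6 to 32. The 10 genes of other granulocytes together held 0.004135% in each naive library, 0.009446% and 0.01012% in the 1-week libraries and 0.001918% and 0.002512% in the 3-week libraries. Some libraries stood apart in genes of other cells. The second 1-week library carried more T-cell RNA than any other, with 128 counts of Lck against at most 36 elsewhere and 23 of Thy1 against at most 5. In 3-week LL2 mice, the first library had a higher erythroid sum (1335 against 571.9 CPM over 10 genes) than the second. Its sum of 10 monocyte and macrophage genes was also higher (1067 against 662.7), mostly from Vcam1 and C1qa. Of those genes, Ccr2, Fn1, Cx3cr1 and Ly86 had fewer counts in the first library than in the second, and the others more. Fewer cells of a type and less RNA in each cell cannot be told apart in these bulk samples.

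Genes with enough counts (12259) were compared by edgeR's quasi-likelihood test on all 6 libraries, with p-values adjusted over all of them by the Benjamini-Hochberg method, and calls were made at an adjusted p under 0.05. Of the 10 genes, 7 passed the filter on low counts, while Epx, Ms4a2 and Fcer1a did not. Among all genes tested, 7.99% were called between 1-week LL2 and naive mice, 21.4% between 3-week LL2 and naive mice and 22.5% between 3-week and 1-week LL2 mice. The libraries of both groups did not overlap, in either direction, in 53.2%, 59.6% and 63.8% of all genes tested. The calls were 518 higher and 461 lower, 1471 higher and 1155 lower, and 1586 higher and 1173 lower. With library totals in place of TMM factors these splits became 575 and 263, 890 and 1675, and 856 and 2136, and the median of all genes moved by 0.05, -0.15 and -0.20 on the log2 scale. Changes below are relative to TMM scaling, and no fold change of the 7 tested genes changed sign under the library totals.

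RNA of the basophil proteases rose at 1 week and fell below the naive level at 3 weeks. Prss34 had 192 and 175 counts in naive mice, 597 and 596 in 1-week LL2 mice and 27 and 73 in 3-week LL2 mice. The gene lies on chromosome 17 from 25298394 to 25300165 (GRCm38, plus strand), and none of its 50-base stretches occurred in another gene. The groups did not overlap, with every 1-week library above and every 3-week library below every naive library. The mean level was 14.76 ± 0.61 CPM (SD, n = 2) in naive, 42.15 ± 3.25 in 1-week LL2 and 3.85 ± 2.49 in 3-week LL2 mice. The rise at 1 week was 2.85-fold (log2 1.51, SE 0.24, edgeR adjusted p = 0.00285). The fall from naive to 3 weeks was 3.82-fold (log2 -1.93, SE 0.29, edgeR adjusted p = 0.000412). Between 3 and 1 weeks the level fell 10.9-fold (log2 -3.45, SE 0.28, edgeR adjusted p = 2.8e-06), which ranked 32 among the falls of 12259 genes.

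Mcpt8, the other basophil protease, is encoded on chromosome 14 (56082166 to 56085273, minus strand) and followed the same order. Its counts were 57 and 74 in naive mice, 232 and 194 in 1-week LL2 mice and 13 and 44 in 3-week LL2 mice, again without overlap. The level rose 2.84-fold at 1 week (log2 1.503, SE 0.32, edgeR adjusted p = 0.0135) and was 2.39-fold below naive at 3 weeks (log2 -1.26, SE 0.38, edgeR adjusted p = 0.032). It was 6.79-fold lower at 3 weeks than at 1 week (log2 -2.76, SE 0.35, edgeR adjusted p = 0.000126). The 3-week libraries differed among themselves, as the first held fewer counts than the second of both proteases. Without the first 3-week library, the difference of Mcpt8 from naive was log2 -0.63 with an edgeR adjusted p of 0.189, while Prss34 was still called at log2 -1.38. The 3-week call of Mcpt8 was also lost without naive replicate 1 (edgeR adjusted p = 0.0669), without naive replicate 2 (0.185) and with the compared groups alone (0.0633).

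Cpa3, on chromosome 3 from 20215620 to 20242181 (minus strand), is made by mast cells as well as basophils. Its counts were 23 and 18 in naive mice, 70 and 71 in 1-week LL2 mice and 7 and 9 in 3-week LL2 mice. The groups were separate, and the order was that of the basophil proteases. Cpa3 rose 3.01-fold at 1 week (log2 1.59, SE 0.36, edgeR adjusted p = 0.0171), was 2.64-fold below naive at 3 weeks (log2 -1.40, SE 0.45, edgeR adjusted p = 0.0394) and 7.96-fold below 1 week at 3 weeks (log2 -2.99, SE 0.41, edgeR adjusted p = 0.000183). When any single library was left out, Cpa3 was no longer called at 1 week (edgeR adjusted p between 0.0774 and 0.119) or at 3 weeks (between 0.0657 and 0.169). Its 3-week call was also lost with all libraries under DESeq2 (adjusted p = 0.0904) and with the compared groups alone in edgeR (0.0733). Mcpt8 was no longer called at 1 week without naive replicate 1 or either 1-week library. Prss34 lost its call at 1 week only without naive replicate 1 (edgeR adjusted p = 0.0565). Leaving out the T-cell-rich 1-week library left log2 differences of 1.43 for Prss34, 1.55 for Mcpt8 and 1.496 for Cpa3 at 1 week.

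**Figure D1:**
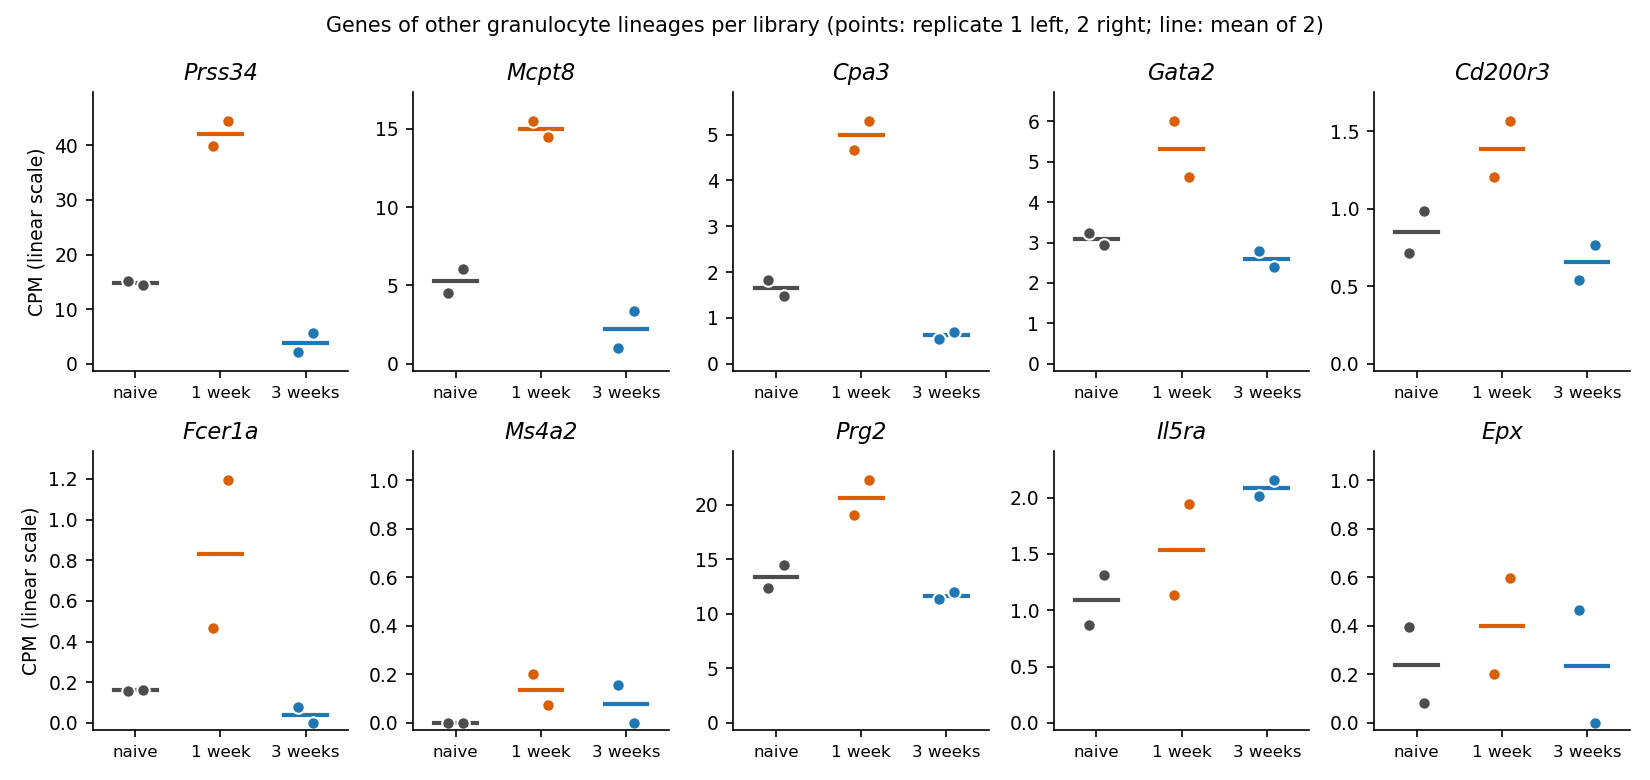
Level of each of the 10 genes in each library, in CPM on a linear axis that differs between panels, with 1 point per library and a line at the mean of 2. Prss34, Mcpt8 and Cpa3 are highest in both 1-week libraries and lowest in both 3-week libraries, Prg2 is highest at 1 week and near its naive level at 3 weeks, and Il5ra is highest in the 3-week libraries.

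Gata2 and Cd200r3 were lower in counts. Gata2 had 41 and 36 counts in naive mice, 90 and 62 in 1-week LL2 mice and 36 and 31 in 3-week LL2 mice. The 1-week libraries were the highest, and the naive and 3-week libraries lay close together. The difference at 1 week was log2 0.78 (SE 0.30) and was not called (edgeR adjusted p = 0.131). From 1 week to 3 weeks Gata2 fell 2.05-fold (log2 -1.04, SE 0.30, edgeR adjusted p = 0.0258), a call lost without the first 1-week library or either 3-week library (edgeR adjusted p between 0.0681 and 0.164) and under DESeq2 (adjusted p = 0.0668). Cd200r3 had 9 and 12 counts in naive, 18 and 21 in 1-week LL2 and 7 and 10 in 3-week LL2 mice. Its 1-week libraries were again above all others, but none of its differences was called. The 95% intervals of the log2 difference ran from -0.48 to 1.88 at 1 week against naive and from -2.27 to 0.15 between 3 and 1 weeks, and the first of these includes the log2 differences measured for the 3 proteases at 1 week.

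The IgE receptor chains had few counts. Fcer1a had 2 counts in each naive library, 7 and 16 in the 1-week libraries, and 1 and 0 in the 3-week libraries. Pooled over a group and scaled for depth, the ratio of 1-week LL2 to naive mice was 5.034 (95% interval 1.72 to 20.02, 23 against 4 counts), and that of 3-week to 1-week LL2 mice was 0.0477 (0.00116 to 0.294, 1 against 23 counts). These intervals cover counting error only and not the spread between mice. The order of Fcer1a was that of Prss34, although most of its 1-week counts came from the second library. Ms4a2 had 0 counts in both naive libraries, 3 and 1 at 1 week and 2 and 0 at 3 weeks, too few to give an order. The signalling chain that the receptor shares with other Fc receptors, Fcer1g, was abundant at between 5552 and 8196 counts and was not called in any comparison.

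**Figure D2:**
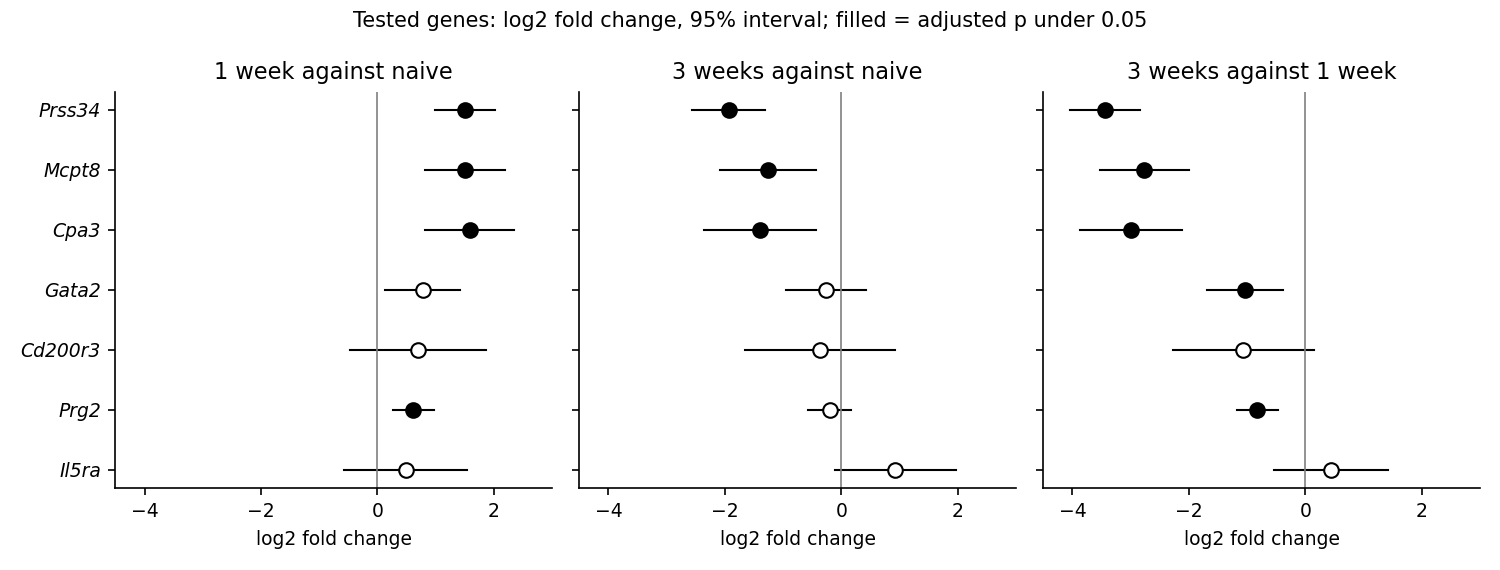
Log2 fold change of the 7 tested genes in each comparison, with the 95% interval of the edgeR fit as a line and filled points for genes called at an adjusted p under 0.05. The intervals of Prss34, Mcpt8 and Cpa3 lie above 0 at 1 week and below 0 at 3 weeks against naive mice, and that of Il5ra includes 0 in all 3 comparisons.

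Among eosinophil genes, Prg2 rose at 1 week and fell again by 3 weeks. Prg2, on chromosome 2 from 84980461 to 84983632 (plus strand), had 156 and 177 counts in naive mice, 285 and 298 in 1-week LL2 mice and 146 and 156 in 3-week LL2 mice. The 1-week libraries were above all others, and a naive and a 3-week library both held 156 counts. Prg2 was 1.54-fold higher at 1 week (log2 0.62, SE 0.17, edgeR adjusted p = 0.0369), was not called at 3 weeks against naive mice (log2 -0.20, 95% interval -0.57 to 0.17, edgeR adjusted p = 0.449) and was 1.77-fold lower at 3 weeks than at 1 week (log2 -0.82, SE 0.17, edgeR adjusted p = 0.0033). The call at 1 week was lost when any single library was left out (edgeR adjusted p between 0.0636 and 0.241) and under DESeq2 (adjusted p = 0.0931). The call between 3 and 1 weeks was kept in all 10 alternatives tried.

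Il5ra was not called in any comparison, and Epx had too few counts to be tested. Il5ra, the interleukin 5 receptor chain, had 11 and 16 counts in naive mice, 17 and 26 in 1-week LL2 mice and 26 and 28 in 3-week LL2 mice. The 3-week libraries were above both naive libraries and at or above the 1-week libraries. The difference from naive was log2 0.93 at 3 weeks (95% interval -0.10 to 1.96, edgeR adjusted p = 0.192) and was not called. Epx, the eosinophil peroxidase, stayed near the floor, with 5 and 1 counts in naive mice, 3 and 8 in 1-week LL2 mice and 6 and 0 in 3-week LL2 mice. Prg3, the neighbour and relative of Prg2 on chromosome 2, had at most 6 counts in any library. Prg2 was thus the one eosinophil granule gene of these 3 above the floor in every library. Which cells carried the Prg2 RNA was not tested.

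The genes were chosen with earlier results of these data known, so the counts below are a description with no test of the set. Counted together, 4 of the 7 tested genes were higher at 1 week than in naive mice, against 4.23% of all genes tested, and 0 were lower, against 3.76%. At 3 weeks, 3 were lower than in naive mice, against 9.42% of all genes, and 0 were higher, against 1471 of 12259 genes. Between 3 and 1 weeks, 5 were lower, against 9.57%, and 0 were higher, against 12.9%. Without a filter on low counts, 6 of the 10 genes were lower between 3 and 1 weeks. The median log2 differences of the 7 genes were 0.78, -0.36 and -1.06, where the medians of all genes tested were 0.01, 0.03 and -0.02. The first median is the value of Gata2 and the others are values of Cd200r3, and none of these values was called. All 1-week libraries lay above all naive libraries in 6 of the 7 genes, where 27.2% of all genes did so. All 3-week libraries lay below all 1-week libraries in 6 of the 7, where 32.3% did. Cd200r3 was among the 6 each time, on few counts. With naive and 3-week libraries alone Cd200r3 did not pass the filter on low counts, and 6 of the genes did.

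Ratios of counts within a library set the genes against each other. Within a library, the count of Prss34 relative to Mcpt8 was 3.368 and 2.365 in naive mice, 2.573 and 3.072 in 1-week LL2 mice and 2.077 and 1.659 in 3-week LL2 mice, so this ratio changed far less than either level. Relative to Cpa3, Prss34 stood at 8.348 and 9.722, then 8.529 and 8.394, then 3.857 and 8.111, the lowest of these resting on 7 counts of Cpa3. Relative to Prg2 it was 1.231 and 0.9887 in naive mice, 2.095 and 2.0 at 1 week and 0.1849 and 0.4679 at 3 weeks. The groups were separate in this last ratio, which spanned a wider range than the ratios among the proteases. Relative to Gata2, Prss34 went from 4.683 and 4.861 to 6.633 and 9.613 and then to 0.75 and 2.355.

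**Figure D3:**
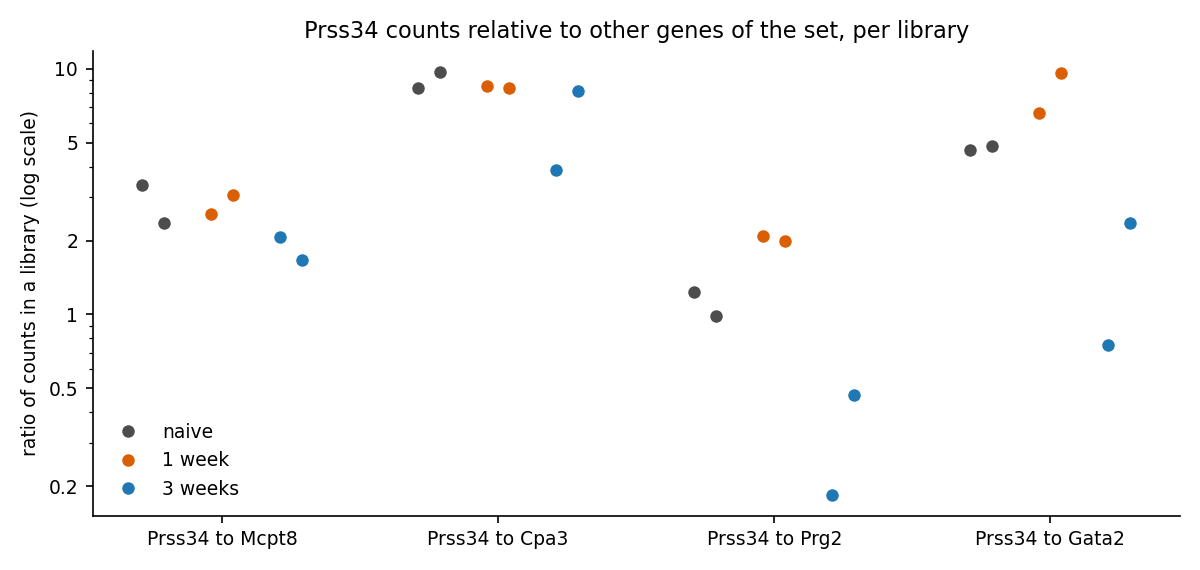
Ratio of Prss34 counts to those of Mcpt8, Cpa3, Prg2 and Gata2 in each library, on a log axis, with 1 point per library. The ratio to Mcpt8 stays between 1.659 and 3.368 in all 6 libraries, while the ratio to Prg2 ranges from 0.1849 to 2.095.

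Per length of transcript, Prg2 was the highest of the 10 genes over all libraries (18.2 CPM per kb, above 84.7% of the genes tested), followed by Prss34 (16.6) and Mcpt8 (7.5). Prg2 and Prss34 swapped places between groups, since Prss34 led at 1 week (34.6 against 24.6 CPM per kb) and was below Prg2 at 3 weeks (3.16 against 13.9). In naive mice Prg2 (16.0 ± 1.81) and Prss34 (12.1 ± 0.50) were nearer each other. Cpa3 (1.59), Gata2 (0.68), Il5ra (0.44), Fcer1a (0.34), Cd200r3 (0.16), Epx (0.11) and Ms4a2 (0.025) followed in that order. Over the 6 libraries, the range of each gene overlapped that of the next in this order.

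Likeness of pattern was measured as the root mean square difference of log2 CPM, centred on the gene's own mean, over the 6 libraries. Of all tested genes, Hist1h3b (0.35), Prss34 (0.35) and Platr23 (0.38) were most like Mcpt8, and Cpa3 ranked 6 (0.45). Those most like Prg2 were Nt5dc3 (0.042), 1700025G04Rik (0.047) and Gm13827 (0.048). Cd200r3 ranked 31 in likeness to Prg2 and 429 in likeness to Mcpt8, and Gata2 ranked 489 and 769. Hist1h3b and Platr23 had few counts, at most 14 and 36 in a library. The measure is a description and carries no test.

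Other genes of the same lineages were taken from lists by name. Of 14 other eosinophil genes, 8 were tested and 3 (Ear10, Ptgdr2 and Ffar1) had 0 counts in every library. At 1 week, 1 of the 8 was higher, and it was the one with the most counts, Cd9, a tetraspanin that many blood cells carry (log2 0.85, edgeR adjusted p = 0.00564), with 2014 and 2225 counts in naive and 5358 and 3444 in 1-week LL2 mice. Of all genes tested, 4.23% were higher at 1 week. At 3 weeks, 4 of the 8 were lower than in naive mice, against 9.42% of all genes tested. Of the 8, 0 were higher there, against 1471 of 12259 genes. The 4 lower ones were the ribonuclease genes Ear2 (log2 -1.79), Ear1 (-2.75) and Ear6 (-2.11) and the lectin-like receptor gene Olr1 (-2.14). Ear1 and Ear2 are uncertain, because 57.4% and 41.5% of their 50-base stretches occur in other genes, mainly other members of the family. Siglecf, a surface lectin that defines mouse eosinophils, had 35 and 49 counts in naive, 22 and 31 in 1-week LL2 and 51 and 89 in 3-week LL2 mice and was higher at 3 weeks than at 1 week (log2 1.52, edgeR adjusted p = 0.0117), opposite in direction to Prg2. The median of the 8 genes was -0.01 at 1 week, -0.9997 at 3 weeks and -1.47 between 3 and 1 weeks.

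Of 25 other basophil and mast cell genes, 11 were tested and 6 had 0 counts in every library. The genes at 0 included the mast cell proteases Mcpt1, Mcpt4, Tpsab1 and Tpsb2 and the receptor Mrgprb2, which define mast cells of connective tissue or mucosa. The gene with the most counts was Hdc, histidine decarboxylase, which makes histamine and is also expressed by neutrophils, at 18289 and 15021 counts in naive, 12752 and 12971 in 1-week LL2 and 11002 and 11725 in 3-week LL2 mice. Hdc was lower than in naive mice at 1 week (log2 -0.56, edgeR adjusted p = 0.0147) and at 3 weeks (log2 -0.61, edgeR adjusted p = 0.00298), and so moved opposite to Prss34 at 1 week. At 3 weeks the chemokine genes Ccl3 (log2 -1.27) and Ccl4 (-0.99) and the integrin gene Itgb7 (-2.05) were also below naive mice. Ms4a3, a gene of granulocyte progenitors, was higher (log2 1.35, edgeR adjusted p = 0.000409), and Kit, the receptor of mast cells and progenitors, was higher at 3 weeks than at 1 week (log2 1.02, edgeR adjusted p = 0.00972). In all, 0 of the 11 were higher and 1 lower at 1 week, and 1 was higher and 4 lower at 3 weeks. Between 3 and 1 weeks 2 were higher and 3 lower, and the medians were 0.04, -0.61 and -0.64. Of all genes tested, 4.23% were higher and 3.76% lower at 1 week. Against naive mice at 3 weeks, 9.42% were lower and 1471 of 12259 higher. Between 3 and 1 weeks, 12.9% of all genes were higher and 9.57% lower. At an unadjusted p under 0.05, 2 of the 11 were higher at 1 week by edgeR, namely Ms4a3 and Ccl3, and DESeq2 called 0 higher there.

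**Figure D4:**
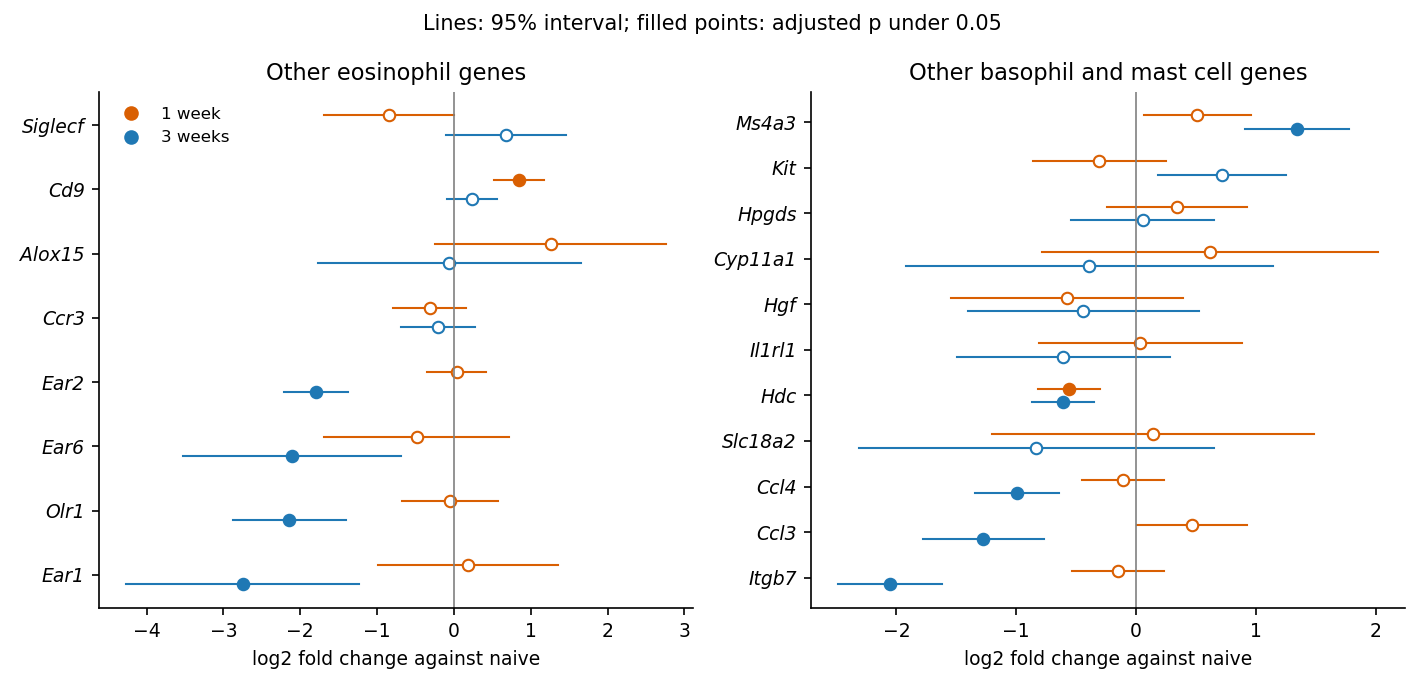
Log2 fold change against naive mice of the tested genes in the lists of other eosinophil genes and of other basophil and mast cell genes, with 95% intervals as lines and filled points for an adjusted p under 0.05. At 1 week only Cd9 and Hdc are filled, in opposite directions, and at 3 weeks 8 of the 9 filled points lie below 0 and Ms4a3 lies above.

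Receptors and signals that these lineages use were taken from lists in the same way. Of 14 genes of IgE receptor signalling, 1 was higher and 1 lower at 1 week, and 3 were higher and 2 lower at 3 weeks. Between 3 and 1 weeks, 3 were higher and 1 lower. Over all genes tested, 7.99%, 21.4% and 22.5% were called in either direction in these 3 comparisons. The adaptor gene Lat2 had 122 and 185 counts in naive, 196 and 144 in 1-week LL2 and 831 and 662 in 3-week LL2 mice, a rise at 3 weeks of log2 2.22 (edgeR adjusted p = 8.79e-06). Lat, which T cells also use, was higher at 1 week (log2 1.86, edgeR adjusted p = 0.0427), with 86 counts in the T-cell-rich library and 32 in the other, and the part of those cells in it was not tested. Of 9 genes of the interleukin 3, interleukin 5 and GM-CSF receptors and their signals, 0 were called at 1 week by edgeR or DESeq2 (1 was higher at an unadjusted p under 0.05) and 5 were higher at 3 weeks. Csf2rb, the beta chain with which Il5ra pairs, had 2962 and 3953 counts in naive, 3550 and 3721 in 1-week LL2 and 9937 and 7974 in 3-week LL2 mice (log2 1.31, edgeR adjusted p = 0.000107). Csf2rb2, the beta chain that serves interleukin 3, rose by log2 2.35 at 3 weeks (edgeR adjusted p = 4.99e-06). Il3ra had at most 19 counts in any library and was not called.

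Genes of other cell types were summed in the same way. The 7 basophil and mast cell genes summed to 25.64 and 25.95 CPM in naive mice, 67.89 and 71.67 in 1-week LL2 mice and 7.213 and 12.84 in 3-week LL2 mice. The 3 eosinophil genes summed to 13.61 and 15.88, then 20.36 and 24.76, then 13.81 and 14.15 CPM. Prg2 alone held between 82.02% and 93.44% of the counts of these 3 genes, so their sum mostly repeats Prg2. The 10 B-cell genes, by comparison, summed to between 47.97 and 60.93 CPM in the naive and 1-week libraries and to 15.75 and 13.92 at 3 weeks. Of those genes, 0 of 10 were called by edgeR or DESeq2 at 1 week, or had an unadjusted p under 0.05. At 3 weeks 10 of 10 were lower by edgeR than in naive mice, against 9.42% of all genes tested. B-cell RNA thus fell together with that of the basophil proteases at 3 weeks. T- and NK-cell genes summed to 17.65 and 14.49 CPM in naive, 19.22 and 34.31 in 1-week LL2 and 6.438 and 7.537 in 3-week LL2 mice, and so were also lowest at 3 weeks. Of the 4 that were tested, Lck was called higher at 1 week (log2 2.39, edgeR adjusted p = 0.0211). Of these 10 genes, Cd3e had at most 11 counts, Cd3g at most 15 and Ncr1 at most 3, while Cd3d had between 124 and 191 counts in naive and 1-week LL2 mice and 27 and 43 in 3-week LL2 mice.

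Erythroid genes (571.9 to 1500 CPM) overlapped between groups. Monocyte and macrophage genes summed to 836 and 678.8 CPM in naive, 581.7 and 596 in 1-week LL2 and 1067 and 662.7 in 3-week LL2 mice. Both 1-week libraries, the highest in the basophil proteases, were the lowest in this sum. Vcam1 (498.4 CPM in naive and 368.5 in 1-week LL2 mice) and C1qa (201.2 and 154.8) made up most of it. Adgre1, C1qb, Ccr2 and F13a1 had higher means at 1 week than in naive mice, and the other genes of the list had lower ones. Against 7.99% of all genes tested, 1 of those 10 genes was called at 1 week, Siglech, which was lower (log2 -1.38, edgeR adjusted p = 0.0185). The other 9, Vcam1 and C1qa among them, were not called. The megakaryocyte genes lay between 131.9 and 201.4 CPM and were lowest at 3 weeks. The library with the higher erythroid and monocyte sums at 3 weeks, the first, was the one with less Prss34 and Mcpt8. Most of the 10 genes listed for early granulocyte progenitors went the other way. The list summed to between 1155 and 1298 CPM in naive and 1-week LL2 mice and to 1523 and 1626 in 3-week LL2 mice. Cd63 (852.4 CPM in naive and 798.9 in 3-week LL2 mice) and Srgn (297.6 and 440.5) made up most of these sums. At 1 week 0 of 10 were called by edgeR or DESeq2 (5 were higher at an unadjusted p under 0.05). At 3 weeks 7 of 10 were higher than in naive mice, against 1471 of all 12259 genes tested. Among the 7 were Prtn3 (log2 3.23) and Mpo (2.30), stored in the primary granules of neutrophils. Cd34 (log2 -0.004), Flt3 (0.045) and Cd63 (-0.09) were not called at 3 weeks against naive mice. The part of B, T, monocyte and progenitor cells in the levels of the basophil and eosinophil genes was not tested.

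**Figure D5:**
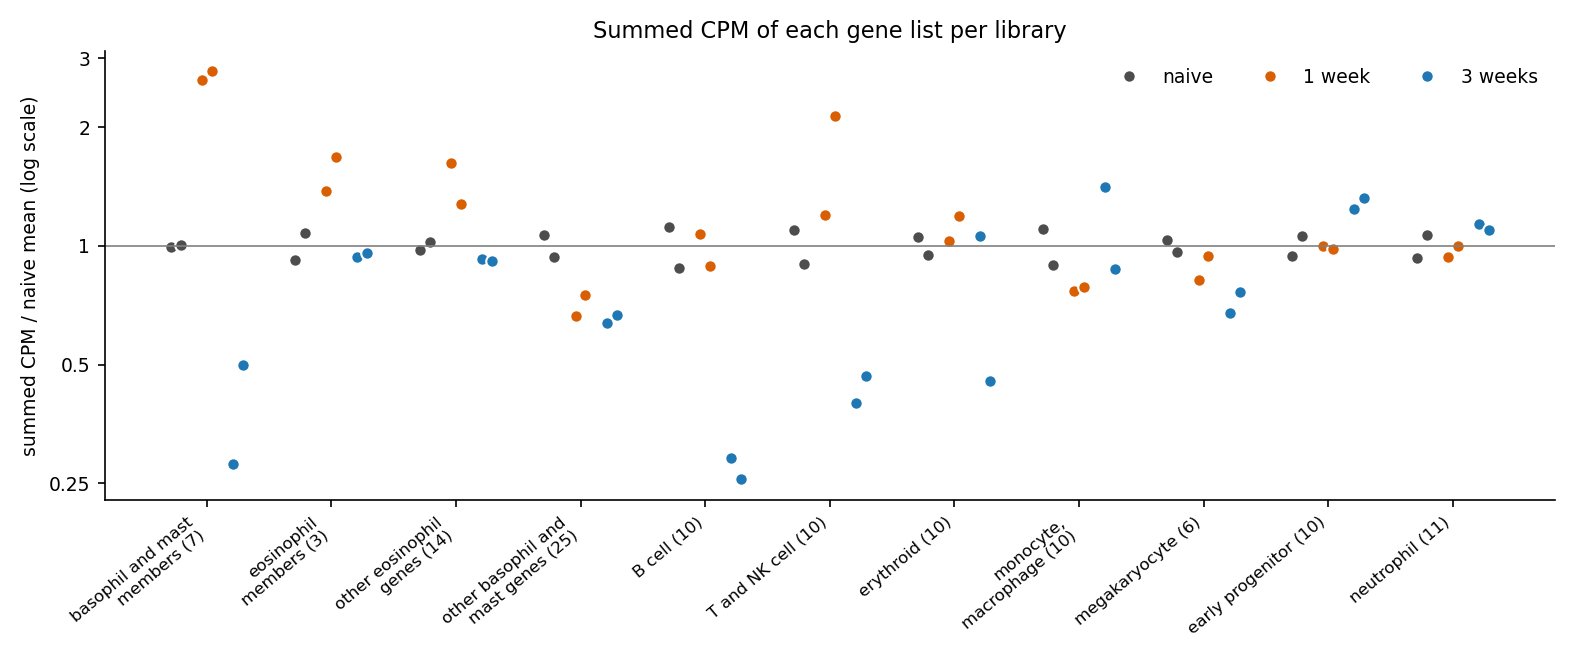
Summed CPM of each gene list in each library, divided by the mean of the 2 naive libraries, on a log axis, with 1 point per library and the number of genes in brackets. The 7 basophil and mast cell genes are the list farthest above naive mice in both 1-week libraries, and at 3 weeks they lie below both naive libraries. So do the B-cell, the T- and NK-cell, the megakaryocyte, the other basophil and mast cell and the other eosinophil genes.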

How the data were processed

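RNA of Ly6G-positive bone marrow cells was sequenced as single-end total RNA libraries, 2 for each of naive, 1-week LL2 and 3-week LL2 mice. The authors deposited unscaled expected counts, rounded to whole numbers, from RSEM (version 1.2.31 in the submitters' processing notes) with Bowtie2 on mm10. Reads shared by similar genes are divided by that estimate. GENCODE gene models of GRCm38 (the same build as mm10) gave symbols for 37570 of 38887 identifiers.

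Counts were filtered by filterByExpr (at least 10 counts in 2 libraries, 12259 genes kept), scaled by TMM (factors 0.9134 to 1.072) and compared in edgeR 4.0.16 (limma 3.58.1, R 4.3.3) with its quasi-likelihood F test. A single model held all 6 libraries and no covariate, and p-values were adjusted over all genes tested after Benjamini and Hochberg. Ratios of genes that failed the filter used exact conditional intervals of pooled counts. With 2 libraries against 2, an exact two-sided permutation test cannot go below p = 0.333, so none is given.

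The genes and lists were chosen with earlier results of these data known. All 10 genes were named, and of each other list the called genes, up to 4 with the smallest adjusted p in a comparison, and the gene with most counts. Motifs were searched in RefSeq promoters from 250 bases before to 50 after the start. Alternatives were DESeq2 1.42.0 and its size factors, library totals, no filter, the compared groups alone, a replicate block, changes over 5-fold and each library left out.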

Additional observations from a re-analysis of the deposited data

Results flagged for a closer look

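The change from naive mice differed between 1 and 3 weeks for 5 of the 7 tested genes, by edgeR's direct test of 3-week against 1-week LL2 mice. Both changes are set against the same naive libraries, so they share those libraries, and the difference between them is the 3-week minus the 1-week level. That difference was -3.45 on the log2 scale for Prss34, -2.99 for Cpa3, -2.76 for Mcpt8, -1.04 for Gata2 and -0.82 for Prg2. Prss34, Cpa3 and Mcpt8 were called higher at 1 week and lower at 3 weeks against naive mice, while Prg2 was called higher at 1 week only and Gata2 in neither. With 2 libraries in each group, single libraries were not examined as outliers.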

How the results depend on the processing

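No log2 fold change of the 7 tested genes changed sign in any alternative. Of the 209 values, 182 kept their side of the threshold and 27 lost a call. Those of Prss34 at 3 weeks against naive, and of Prss34, Mcpt8, Cpa3 and Prg2 between 3 and 1 weeks, stayed called throughout. With single libraries left out, the number of these genes called ranged from 0 to 2 at 1 week (4 with all libraries), from 1 to 2 at 3 weeks (3) and from 4 to 5 between 3 and 1 weeks (5). It was 0 without naive replicate 1, 2 without naive replicate 2 and 1 without either 1-week library. At 1 week against naive, all genes called fell from 979 to between 147 and 658 as libraries were left out, and 1537 were called with no filter. For 3 weeks against naive, 1362 to 1894 were called (2626), and for 3 weeks against 1 week 1502 to 2103 (2759). The other eosinophil genes called ranged from 0 to 1 (1), 2 to 4 (4) and 3 to 4 (5), and the other basophil and mast cell genes from 0 to 2 (1), 5 to 5 (5) and 4 to 5 (5). A change over 5-fold, in addition to the adjusted p, left 0, 0 and 3 of the 7 genes, 0, 1 and 1 of the other eosinophil genes and 0, 0 and 0 of the other basophil and mast cell genes. With the compared groups alone, 1 of the genes was called at 3 weeks against naive. The cause of these losses was not tested, beyond the fewer libraries or the stricter rule.

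The replicate number in the labels counts the libraries of a group, each titled as a mouse of that group, and no pairing between groups is stated. The differences between replicates 1 and 2 had correlations across genes of 0.010, 0.036 and 0.038 between groups. As a block in the model it gave 959, 2559 and 2709 calls over all genes and 4, 3 and 5 among the genes described, and it changed no call of the 7 tested genes. Depth limits Epx, Ms4a2 and Fcer1a, which did not pass the filter on low counts.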

Other observations

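Of 16 transcription factors that shape these and neighbouring blood lineages, 0 were higher and 1 lower at 1 week than in naive mice. At 3 weeks 3 were higher and 7 lower, and between 3 and 1 weeks 4 were higher and 5 lower. Of all genes tested, 4.23% were higher and 3.76% lower at 1 week. Against naive mice at 3 weeks, 1471 of 12259 genes were higher and 9.42% lower. Between 3 and 1 weeks, 12.9% of all genes were higher and 9.57% lower. At 1 week the lower one of the 16 was Irf8, a factor of monocyte and dendritic cell development (log2 -0.70, edgeR adjusted p = 0.0156). At an unadjusted p under 0.05, 1 of the 16 was higher and 3 were lower at 1 week. At 3 weeks Cebpe, which drives the making of secondary granules, had 572 and 606 counts against 1105 and 1140 in naive mice (log2 -0.99, edgeR adjusted p = 8.49e-05). Bach2 (log2 -1.73), known from lymphocytes, and Lmo2 (-1.04), a partner of GATA factors, were lower as well, and Id1, an inhibitor of helix-loop-helix factors, was higher (1.32). Gata1, which eosinophils and mast cells use beside erythroid cells, had 39 and 16 counts in naive, 43 and 44 in 1-week LL2 and 26 and 22 in 3-week LL2 mice and was not called in any of the 3 comparisons.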
